A study of Caenorhabditis elegans with 6 samples.

Results

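The genes described are the 3 oligopeptide transporter genes pept-1, pept-2 and pept-3 and the 6 amino acid transporter subunit genes aat-1 to aat-6 of *C. elegans*, chosen by their symbols. All 9 were found among the 46936 genes of the deposited table, and all 9 were abundant enough to be tested. Whole-animal RNA-seq was carried out on 3 replicates grown on MProPow2 and 3 replicates grown on water-treated control plates. MProPow2 is a batch of powder made from buttermilk, which carries the membranes of milk fat globules, with its proteins partially cut by enzymes. It was spread on the plates as a 1 mg/mL solution. All animals were N2 wild type, fed *E. coli* OP50 from the L1 stage on, kept at 20 °C, moved at the L4 stage to plates with 10 µM 5-FU to prevent progeny, and collected on day 2 of adulthood. The methods call the replicates biological, without saying how many animals or plates each held.

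Dietary protein reaches an animal's cells both as free amino acids and as short peptides. Transporters of the PEPT family carry dipeptides and tripeptides into cells together with protons, and PEPT-1 is the peptide transporter of the luminal face of the worm intestine, needed for normal growth and known for its links to fat storage and insulin signaling. The AAT proteins are related to the light chains of mammalian heteromeric amino acid transporters, in which a light chain moves the amino acids and a heavy chain glycoprotein brings it to the cell surface. The worm heavy chains are encoded by atgp-1 and atgp-2.

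Total counts ran from 29347851 to 32145772 in MProPow2 libraries and from 28859395 to 37501098 in control libraries. The rRNA share was 0.815% to 1.91% in MProPow2 libraries and 0.208% to 1.42% in control libraries. The 9 transporter genes reached up to 5673 counts in a library, in pept-1, and the least abundant, aat-5, had 115 to 180 counts in MProPow2 libraries. No 2 libraries within a group agreed within sampling noise (chi-square over its degrees of freedom, 14.9 or more for each pair), and each was treated as a separate sample.

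Levels were compared between genes by the deposited FPKM, which corrects for gene length. pept-1 was the most abundant of the 9 genes in both groups, with 39.5 ± 7.65 FPKM in MProPow2 and 51.4 ± 2.88 FPKM in control (SD, n = 3 each). The second was aat-3, with 20.8 ± 4.51 FPKM in MProPow2 and 21.9 ± 4.21 FPKM in control. pept-2 came next, with 13.8 ± 2.01 FPKM in MProPow2 and 11.2 ± 1.38 FPKM in control. These 3 genes and aat-6 and aat-4 kept ranks 1 to 5 in both groups. In control libraries the FPKM ranges of neighbouring genes in this order did not overlap from pept-1 down to aat-4. In MProPow2 libraries aat-3 overlapped with pept-2, aat-6 with aat-4 and aat-2 with aat-5. The 4 least abundant genes, pept-3, aat-1, aat-2 and aat-5, lay between 1.97 and 4.84 FPKM in MProPow2 libraries and between 1.84 and 4.85 FPKM in control libraries. In both groups the ranges of pept-3, aat-1 and aat-2 overlapped with those of their neighbours among these 3. aat-5 had the lowest mean, 2.36 ± 0.56 FPKM in MProPow2 and 2.05 ± 0.20 FPKM in control.

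**Figure D1:**
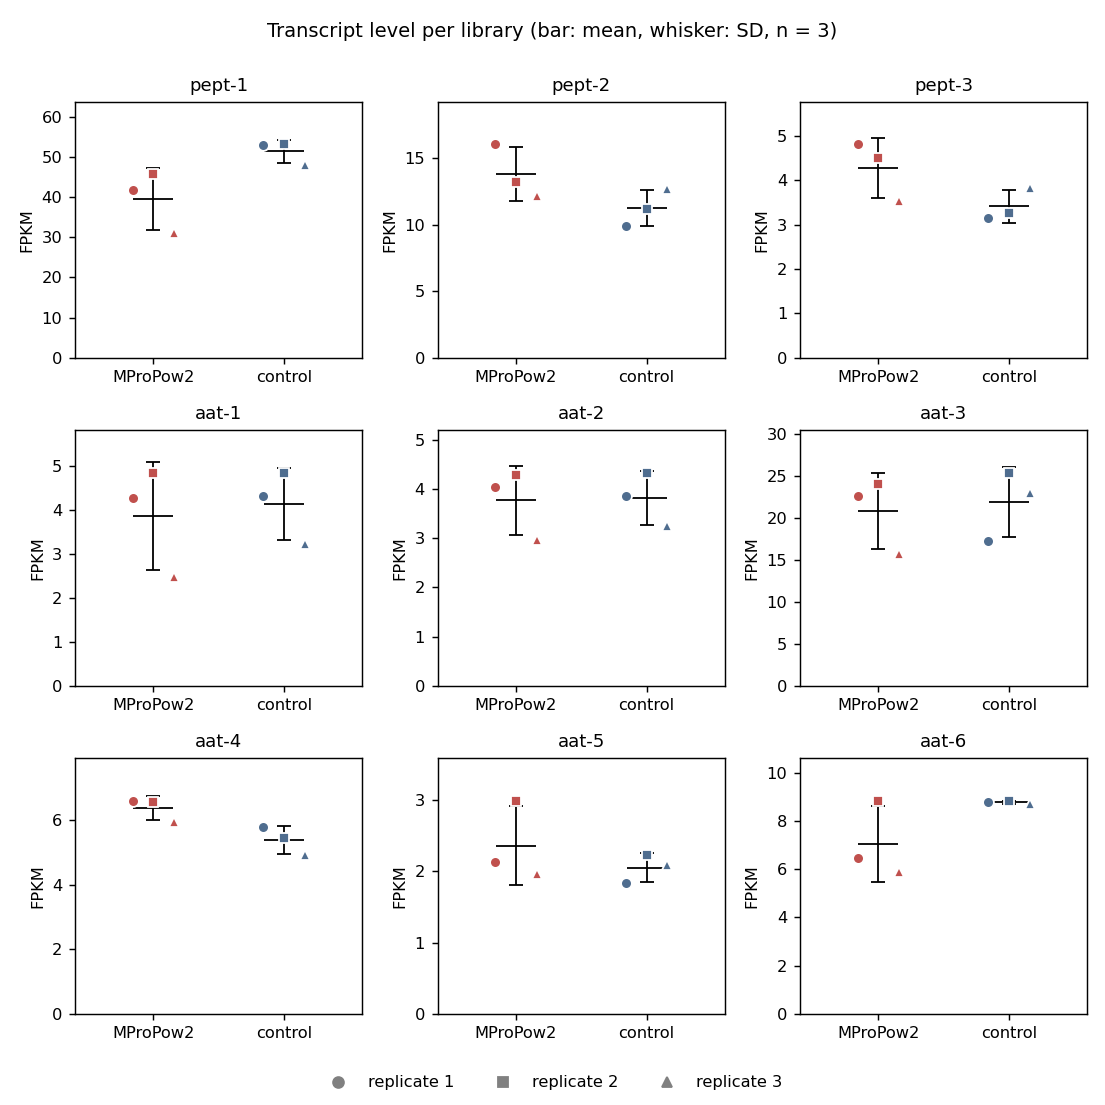
FPKM (vertical axes, from 0) of the 9 transporter genes in the 3 MProPow2 and the 3 control libraries, 1 panel per gene, with marker shape for the replicate number. pept-1 lies below control in all 3 MProPow2 libraries, aat-4 lies above control in all 3, and the other 7 genes overlap between the groups.

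None of the 9 transporter genes passed the threshold between MProPow2-treated and control animals. With edgeR's quasi-likelihood test and Benjamini-Hochberg adjustment over the 14534 genes tested, 0 of the 9 were called at an adjusted p under 0.05, where 3.01% of all genes tested were called. At an unadjusted p under 0.05, 0 of the 9 were higher and 1 was lower in edgeR (pept-1), where 9.13% of all genes tested were higher and 7.75% lower, or 16.9% in either direction. DESeq2 had 2 of the 9 (pept-1 and aat-6) lower at an unadjusted p under 0.05. At an adjusted p it called 0 of the 9, beside 4.62% of its 15772 genes. limma on log2(FPKM + 1) had 1 lower (pept-1) at an unadjusted p. At an adjusted p it called 0 of the 9, beside 97 of its 20811 genes. The share of all genes at an unadjusted p was computed for edgeR only, and it is not a like background for the DESeq2 and limma counts. When single libraries were left out, the number of all genes called was 117, 391 and 1044 without MProPow2 replicate 1, 2 or 3, and 153, 72 and 99 without control replicate 1, 2 or 3, while 0 of the 9 transporter genes were called each time. Without a filter on low counts, 1 of the 9 was called (pept-1), where 4.61% of the 26609 genes then tested were called. The log2 fold changes of the 9 ran from -0.39 to 0.32, with 4 above 0 and 5 below, and their median was -0.025, beside -0.013 over all genes tested. Seen as folds, the 95% intervals of all 9 lay between 0.619 and 1.59 times control.

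**Figure D2:**
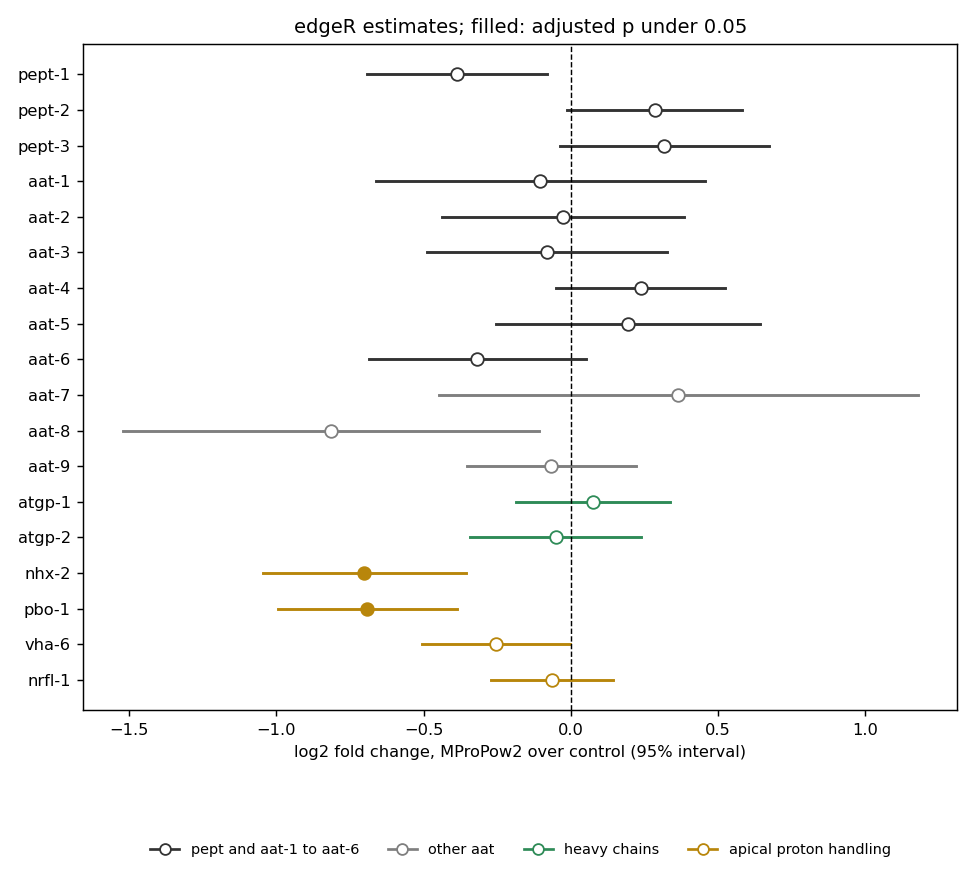
edgeR log2 fold change of MProPow2 over control (horizontal axis) with its 95% interval. Shown are the 9 transporter genes, the other aat genes, the heavy chain genes and 4 genes of apical proton handling and scaffold, including the scaffold gene nrfl-1. Filled points, which are nhx-2 and pbo-1, passed an adjusted p of 0.05, and among the 9 transporter genes only the interval of pept-1 leaves out 0.

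Of the peptide transporters, the intestinal pept-1 (NCBI Gene identifier 180919) was at 117, 132 and 87.3 CPM (reads scaled to a common library size after TMM adjustment) in MProPow2 replicates 1, 2 and 3, against 151, 151 and 138 CPM in control replicates 1, 2 and 3. The groups did not overlap, and every MProPow2 library was below every control library. Groups that do not overlap were seen in 23.3% of all genes tested, 12.3% with MProPow2 lower. The mean was 112 ± 22.9 CPM in MProPow2 and 147 ± 7.78 CPM in control (SD, n = 3 each), which is 76.5% of control. The log2 fold change was -0.39 (standard error 0.14, 95% interval -0.69 to -0.081), with an adjusted p of 0.187 from edgeR and an unadjusted p of 0.018. Without the filter its log2 fold change was again -0.39, with a standard error of 0.11 and an adjusted p of 0.017 from edgeR. Over the single-library exclusions it ran from -0.52 without MProPow2 replicate 2 to -0.24 without MProPow2 replicate 3, which was the lowest of the 6 libraries. In whole animals, less pept-1 RNA per intestinal cell and less intestinal RNA in all cannot be told apart.

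The other peptide transporters had higher means in MProPow2, and neither was called. pept-2 (identifier 177973) was at 40.6, 34.5 and 30.9 CPM in MProPow2 replicates 1, 2 and 3, against 25.4, 28.8 and 32.7 CPM in control replicates 1, 2 and 3. Only MProPow2 replicate 3 fell within the range of the control libraries. Its log2 fold change was 0.29 (95% interval -0.012 to 0.58, adjusted p = 0.321 from edgeR). pept-3 (identifier 172298), whose product acts largely as a proton conductance when placed in frog oocytes, was at 11.8, 11.3 and 8.67 CPM in MProPow2 replicates 1, 2 and 3, against 7.79, 8.13 and 9.55 CPM in control replicates 1, 2 and 3. Again MProPow2 replicate 3 lay within the control range while the other MProPow2 libraries lay above it. The log2 fold change of pept-3 was 0.32 (95% interval -0.037 to 0.67, adjusted p = 0.356 from edgeR). Single libraries moved both values. For pept-2 the log2 fold change was 0.17 without MProPow2 replicate 1 (adjusted p = 0.714 from edgeR), 0.20 without control replicate 1 (0.735) and 0.37 without MProPow2 replicate 3 (0.078). For pept-3 it was 0.23 without MProPow2 replicate 1 (adjusted p = 0.694 from edgeR) and 0.44 without MProPow2 replicate 3 (0.071).

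Ratios of counts within a library do not depend on how libraries are scaled to each other. They were computed for the 3 pept genes after their values were seen, with pept-1 lower and pept-2 and pept-3 higher in mean. A gap in the ratios of pept-1 is therefore not separate evidence of a difference. Such ratios can also differ through the shares of tissues in the whole animal, which was not tested. For each count of pept-2, there were 2.88, 3.83 and 2.83 counts of pept-1 in MProPow2 replicates 1, 2 and 3, against 5.94, 5.25 and 4.21 in control replicates 1, 2 and 3. All MProPow2 libraries lay below all control libraries, with means of 3.18 ± 0.57 and 5.13 ± 0.87 (SD, n = 3 each), a ratio of 0.620 (two-sided exact permutation p = 0.1, which is the lower limit for 3 against 3). For each count of pept-3, there were 9.92, 11.7 and 10.1 counts of pept-1 in MProPow2 libraries and 19.3, 18.6 and 14.4 in control libraries, again without overlap (two-sided exact permutation p = 0.1). The ratio of pept-2 to pept-3 counts lay between 3.05 and 3.56 in MProPow2 libraries and between 3.26 and 3.54 in control libraries (two-sided exact permutation p = 0.9). The log2 ratio of the pept-1 to pept-2 means was between -0.85 and -0.57 whichever library was left out, and that of the pept-1 to pept-3 means was between -0.85 and -0.64. Of the summed FPKM of the 3 genes, pept-1 took 66.7%, 72.1% and 66.5% in MProPow2 replicates 1, 2 and 3, against 80.3%, 78.6% and 74.5% in control replicates 1, 2 and 3. The sum itself was 57.6 ± 9.47 FPKM in MProPow2 and 66.1 ± 1.51 FPKM in control (SD, n = 3 each). All 3 MProPow2 sums lay below the control sums (two-sided exact permutation p = 0.1), and the ratio of means was 0.871. On the log2 scale that ratio was -0.20, and -0.068 without MProPow2 replicate 3.

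**Figure D3:**
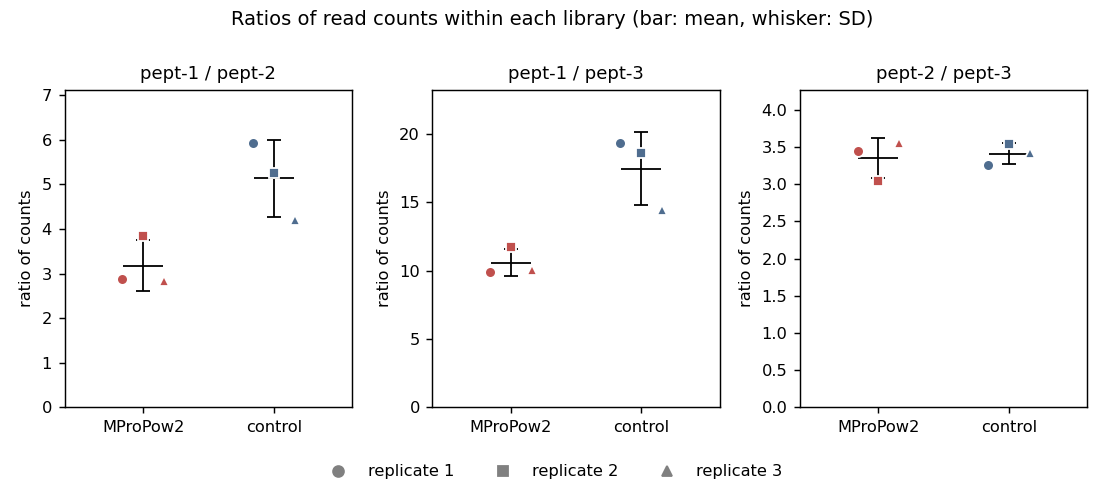
Ratio of read counts of pept-1 to pept-2, pept-1 to pept-3 and pept-2 to pept-3 (vertical axes, from 0) in each MProPow2 and control library. The first 2 ratios are lower in every MProPow2 library than in every control library, and the third overlaps, between 3.05 and 3.56 over all 6 libraries.

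Among the light chain genes, aat-1 and aat-3 encode proteins that exchange amino acids together with the heavy chain ATGP-2 in frog oocytes. aat-3 (identifier 180557) was at 46.1, 50.5 and 32.0 CPM in MProPow2 replicates 1, 2 and 3, against 35.6, 52.6 and 47.7 CPM in control replicates 1, 2 and 3. The groups overlapped throughout, and the spread within each group was larger than the difference of the means (log2 fold change -0.081, 95% interval -0.49 to 0.33, adjusted p = 0.880 from edgeR). On the WBcel235 annotation an exon of aat-3 overlaps a non-coding gene on the other strand, F52H2.9, and the strand setting of the counting is not given in the sources used here. aat-1 (identifier 177793) was at 7.42, 8.69 and 4.34 CPM in MProPow2 replicates 1, 2 and 3, against 7.62, 8.59 and 5.75 CPM in control replicates 1, 2 and 3. aat-2 (identifier 184126) was at 7.04, 7.69 and 5.20 CPM in MProPow2 replicates 1, 2 and 3, against 6.82, 7.68 and 5.78 CPM in control replicates 1, 2 and 3. Replicate 2 was the highest and replicate 3 the lowest library of each group in both genes. Their log2 fold changes were -0.10 (95% interval -0.66 to 0.45, adjusted p = 0.890 from edgeR) for aat-1 and -0.025 (95% interval -0.44 to 0.39, adjusted p = 0.971 from edgeR) for aat-2. The sign of aat-1, aat-2 and aat-3 depended on single libraries. Without MProPow2 replicate 3 their log2 fold changes were 0.13, 0.12 and 0.088, and without control replicate 2 they were 0.031, 0.080 and 0.039.

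aat-6 (identifier 188421), which encodes a carrier of the luminal membrane of the intestine, was at 11.4, 16.1 and 10.4 CPM in MProPow2 replicates 1, 2 and 3, against 15.8, 15.8 and 15.7 CPM in control replicates 1, 2 and 3. MProPow2 replicates 1 and 3 were below control, and MProPow2 replicate 2 was above it. The control libraries agreed within a coefficient of variation of 0.317%, which is less than the 4.41% that counting alone gives at this depth, while the MProPow2 libraries had 23.99%. The log2 fold change was -0.32 (95% interval -0.69 to 0.050, adjusted p = 0.376 from edgeR), and it was -0.25 without MProPow2 replicate 1 (adjusted p = 0.678 from edgeR), -0.53 without MProPow2 replicate 2 (0.068) and -0.20 without MProPow2 replicate 3 (0.426). aat-4 (identifier 177388) was at 12.1, 12.4 and 10.9 CPM in MProPow2 replicates 1, 2 and 3, against 10.7, 10.1 and 9.17 CPM in control replicates 1, 2 and 3. The groups did not overlap, the nearest libraries being MProPow2 replicate 3 and control replicate 1, and 11.1% of all genes tested had such a gap with MProPow2 higher. Its log2 fold change was 0.24 (95% interval -0.049 to 0.53, adjusted p = 0.400 from edgeR). Its exons overlap 4 piRNA loci of the other strand on WBcel235. aat-5 (identifier 171814), the least abundant, was at 4.13, 5.996 and 3.84 CPM in MProPow2 replicates 1, 2 and 3, against 3.62, 4.40 and 4.16 CPM in control replicates 1, 2 and 3. Only MProPow2 replicate 2 lay above the control range, and the log2 fold change over all libraries was 0.19 (95% interval -0.25 to 0.64, adjusted p = 0.706 from edgeR). Summed over the 6 genes, the level was 44.3 ± 8.53 FPKM in MProPow2 and 46.0 ± 4.70 FPKM in control (SD, n = 3 each, two-sided exact permutation p = 0.9). aat-3 took 44.9% to 49.1% of this sum in MProPow2 libraries and 41.2% to 50.9% in control libraries.

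The heavy chain genes, which mammalian-type light chains need to reach the membrane, differed less than their replicates did. atgp-1 was at 25.3 ± 2.94 CPM in MProPow2 and 24.01 ± 1.46 CPM in control (SD, n = 3 each), with a log2 fold change of 0.075 (95% interval -0.19 to 0.34, adjusted p = 0.820 from edgeR). atgp-2 was at 12.7 ± 0.67 CPM in MProPow2 and 13.2 ± 1.47 CPM in control, with a log2 fold change of -0.051 (95% interval -0.34 to 0.24, adjusted p = 0.897 from edgeR). The summed FPKM of aat-1 to aat-6 was 2.41 ± 0.36 times that of the heavy chains in MProPow2 and 2.61 ± 0.39 times in control (two-sided exact permutation p = 0.5). Which of the products of aat-1 to aat-6 pair with a heavy chain was not examined here. The other aat genes were not called either. aat-9, which carries aromatic amino acids without a heavy chain, was at 47.3 ± 4.94 CPM in MProPow2 and 49.6 ± 7.70 CPM in control (log2 fold change -0.066, adjusted p = 0.858 from edgeR), and an exon of it overlaps png-1 on the other strand. The sparse aat-8 had 18, 25 and 11 counts in MProPow2 replicates 1, 2 and 3, against 30, 39 and 32 counts in control replicates 1, 2 and 3, without overlap, as in 12.3% of all genes tested with MProPow2 lower. Its log2 fold change was -0.81 (95% interval -1.52 to -0.11, adjusted p = 0.227 from edgeR). aat-7 had 16 to 26 counts in MProPow2 libraries and 10 to 24 counts in control libraries (log2 fold change 0.37, adjusted p = 0.692 from edgeR).

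Peptide uptake through PEPT-1 brings protons into the intestinal cell, and the sodium-proton exchanger NHX-2 of the same membrane removes them. Both nhx-2 and pbo-1, which encodes a calcineurin B-like partner protein of such exchangers, fell in MProPow2-treated animals. nhx-2 (identifier 174242) was at 46.8, 56.1 and 33.8 CPM in MProPow2 replicates 1, 2 and 3, against 72.0, 74.8 and 75.4 CPM in control replicates 1, 2 and 3, which is 61.5% of control on average. pbo-1 (identifier 175385) was at 22.6, 29.8 and 21.0 CPM in MProPow2 replicates 1, 2 and 3, against 41.7, 38.7 and 38.15 CPM in control replicates 1, 2 and 3, or 61.9% of control. In both genes every MProPow2 library lay below every control library, as in 12.3% of all genes tested. The summed CPM of 10 intestine marker genes, given below, averaged 0.619 times control, or 0.833 times without the marker asp-1. As for pept-1, less RNA per intestinal cell and less intestinal RNA in all cannot be told apart in whole animals. The log2 fold changes were -0.70 for nhx-2 (standard error 0.15, adjusted p = 0.045 from edgeR) and -0.69 for pbo-1 (standard error 0.14, adjusted p = 0.031 from edgeR), and DESeq2 also called both (adjusted p = 2.8e-04 and 7.7e-05). The edgeR calls of both were lost without MProPow2 replicate 1 or without any single control replicate, with adjusted p from edgeR between 0.086 and 0.147 for nhx-2 and between 0.089 and 0.127 for pbo-1. Both calls were also lost with upper-quartile scaling (adjusted p = 0.090 and 0.061 from edgeR) and with limma on log2(FPKM + 1) (0.164 and 0.105). Of the other listed genes of this membrane, vha-6, a subunit of the apical proton pump, had a log2 fold change of -0.25 (adjusted p = 0.291 from edgeR), and nrfl-1, the scaffold protein that binds AAT-6, had -0.064 (adjusted p = 0.801 from edgeR). These 2 genes were not among those to be named by rule. In all, 2 of the 4 genes tested on this list were called lower and 0 higher, beside 1.47% of all genes tested called lower and 1.53% called higher. At an unadjusted p under 0.05 in edgeR, 3 of the 4 were lower, beside 7.75% of all genes tested and 6 of the 10 intestine markers. The list had 5 genes, of which nhx-7 was not matched to a row.

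**Figure D4:**
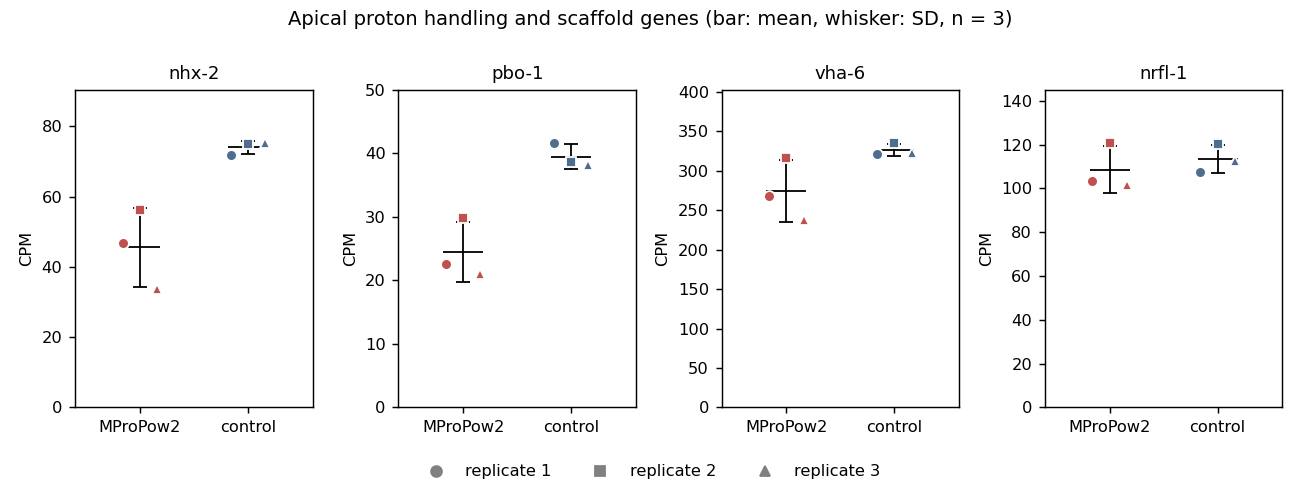
CPM (vertical axes, from 0) of nhx-2, pbo-1, vha-6 and nrfl-1 in each MProPow2 and control library. nhx-2 and pbo-1 average 61.5% and 61.9% of control, vha-6 is lower in every MProPow2 library with a smaller gap, and nrfl-1 overlaps between the groups.

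The counts of pept-1 per count of nhx-2 were 2.49, 2.36 and 2.58 in MProPow2 replicates 1, 2 and 3, against 2.10, 2.02 and 1.83 in control replicates 1, 2 and 3. Here the MProPow2 libraries all lay above the control libraries (two-sided exact permutation p = 0.1, the lower limit). The mean ratio was 1.25 times that of control. This ratio was also computed after the values were seen, with nhx-2 at 61.5% and pept-1 at 76.5% of control. Its gap is therefore not separate evidence of a difference.

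Of 17 peptidases that cut short peptides, 1 was called higher and 1 lower, where 1.53% of all genes tested were called higher and 1.47% lower, and the median log2 fold change was -0.057. dpf-6, of the dipeptidyl peptidase family, rose and was at 6.11, 5.66 and 6.77 CPM in MProPow2 replicates 1, 2 and 3, against 3.13, 3.57 and 2.98 CPM in control replicates 1, 2 and 3 (log2 fold change 0.93, standard error 0.16, adjusted p = 0.019 from edgeR). pcp-4, of the prolyl carboxypeptidase-like family, fell and was at 12.3, 14.0 and 17.8 CPM in MProPow2 replicates 1, 2 and 3, against 24.6, 24.3 and 23.2 CPM in control replicates 1, 2 and 3 (log2 fold change -0.71, standard error 0.14, adjusted p = 0.033 from edgeR). The groups did not overlap in either gene, as in 11.1% of all genes tested with MProPow2 higher and 12.3% with MProPow2 lower. Neither call held without MProPow2 replicate 1 or without any single control replicate, where adjusted p from edgeR lay between 0.064 and 0.082 for dpf-6 and between 0.0999 and 0.126 for pcp-4, and pcp-4 was also lost without MProPow2 replicate 2 (0.076). With limma on log2(FPKM + 1), neither was called (adjusted p = 0.105 and 0.140). DESeq2 called 1 higher (dpf-6) and 2 lower (pcp-4 and pcp-2) of the 17, where it called 4.62% of its 15772 genes. pcp-2, named after its values were seen, had a log2 fold change of -0.53 (adjusted p = 0.059 from edgeR). Other settings gave more calls, among all genes as well. Without MProPow2 replicate 3, 2 of the 17 were called higher (dpf-6 and dpf-2) and 3 lower (pcp-4, pcp-2 and pcp-3), with an adjusted p from edgeR of 2.9e-04 for pcp-4 and 0.0026 for pcp-2. Of all 14878 genes tested in that fit, 627 were called higher and 417 lower, against 223 and 214 of 14534 with all libraries. Without the filter, 2 were called higher (dpf-6 and dpf-2) and 2 lower (pcp-4 and pcp-2), with an adjusted p from edgeR of 0.042 for dpf-2 and 0.0010 for pcp-2. That fit called 4.61% of the 26609 genes it tested. The names of dpf-2 and pcp-3 were also added with their values known.

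Other carriers and sensors of amino acids gave 0 calls in edgeR, DESeq2 and limma. They are the 10 tested snf genes, related to transporters of neurotransmitters and betaine, the 5 tested glt genes, which clear glutamate, 6 genes related to proton-coupled amino acid transporters (skat-1 and the slc-36 genes), the lysosomal exporters laat-1 and ctns-1, and 12 genes of TOR signaling and amino acid sensing. At an unadjusted p under 0.05 in edgeR, 2 of the 10 snf genes passed, snf-8 and snf-5, both higher, where 9.13% of all genes tested were higher. None of the genes of the other 4 lists did. At an unadjusted p under 0.05, DESeq2 had snf-8 higher and the transcription factor gene atf-4 of the TOR list lower. The share of all genes at an unadjusted p was not computed for DESeq2. Without the filter, edgeR called snf-8 higher (adjusted p = 0.041) and atf-4 lower (adjusted p = 0.020), where 4.61% of all genes then tested were called. The median log2 fold changes of these lists were -0.0077 (snf), 0.051 (glt), -0.092 (skat-1 and slc-36), -0.11 (lysosomal) and -0.073 (TOR). The members of smallest p were snf-8 (log2 fold change 1.24, adjusted p = 0.180 from edgeR, on 7 to 40 counts per library), glt-1 (0.082, adjusted p = 0.725), skat-1 (-0.092, adjusted p = 0.727), ctns-1 (-0.13, adjusted p = 0.512) and nprl-3 (-0.21, adjusted p = 0.338). Of 15 tested carriers of sugars, dicarboxylates and nucleosides, 0 were called by edgeR, DESeq2 or limma, and 3 had an unadjusted p under 0.05 in edgeR (ent-4, nac-3 and fgt-1), all lower, where 7.75% of all genes tested were lower. Without the filter, edgeR called ent-7 lower (adjusted p = 0.026), beside 4.61% of all genes then tested called in either direction. The choice to name snf-5, atf-4, nac-3, fgt-1 and ent-7 was made with these values known. With the filter, the smallest edgeR p of the 15 was that of the nucleoside transporter ent-4, at 13.95 ± 1.77 CPM in MProPow2 and 18.3 ± 1.11 CPM in control (log2 fold change -0.39, adjusted p = 0.158 from edgeR).

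MProPow2 replicate 3 held the lowest CPM of the group for 9 of the 9 transporter genes, where 40.9% of all genes tested were lowest in that library, and the highest was in MProPow2 replicate 2 for 7 of the 9 and in MProPow2 replicate 1 for pept-2 and pept-3. In control libraries, replicate 3 was the lowest for 5 of the 9, replicate 1 for 4, and replicate 2 was the highest for 6. The coefficient of variation was larger in MProPow2 than in control for 8 of the 9 genes, aat-4 being the exception (6.36% against 7.77%). Across the 6 libraries, log2 CPM of aat-1 and aat-2 went together (Pearson r = 0.99), as did pept-2 and pept-3 (0.94) and pept-1 and aat-6 (0.91), while the lowest value was that of pept-2 and aat-6 (-0.42). These 36 pairs are a description, since all genes share the same 6 libraries and their depth. Among 7752 genes with a mean of at least 10 CPM, those whose log2 CPM over the 6 libraries was most like that of pept-1 were Y39B6A.1 (r = 0.997), sbt-1 (r = 0.996) and fut-1 (r = 0.991). Y39B6A.1 was at 383, 572 and 124 CPM in MProPow2 replicates 1, 2 and 3, against 929, 968 and 772 CPM in control replicates 1, 2 and 3, a far wider range than that of pept-1. Its adjusted p was 0.140 from edgeR.

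Markers of the tissues in a whole animal were summed per library. The 10 intestine markers summed to 2669, 3742 and 2905 CPM in MProPow2 replicates 1, 2 and 3, against 4681, 5210 and 5162 CPM in control replicates 1, 2 and 3. All 10 had negative log2 fold changes, with a median of -0.32, and 2 were called lower (ifd-2 and asp-1). Of all 14534 genes tested, 7688 had negative log2 fold changes, the median was -0.013 and 1.47% were called lower. The protease gene asp-1 made up most of the intestine sum, and without it the sums were 1090, 1263 and 1059 CPM in MProPow2 and 1349, 1386 and 1362 CPM in control. Relative to the sum without asp-1, pept-1 was at 0.107, 0.105 and 0.0825 in MProPow2 replicates 1, 2 and 3, against 0.112, 0.109 and 0.101 in control replicates 1, 2 and 3, with overlap between the groups (two-sided exact permutation p = 0.4). Relative to the sum with asp-1, pept-1 averaged 0.0364 ± 0.0069 in MProPow2 and 0.0293 ± 0.0028 in control (SD, n = 3 each, two-sided exact permutation p = 0.2). The mean ratio was 1.24 times control with asp-1 and 0.91 times without it, and its direction thus depended on 1 marker. asp-1 was left out after the data were seen, while ifd-2, also called lower, was kept. These ratios do not tell apart the causes of the lower pept-1 values. The sums of body wall muscle markers were 1672 to 1741 CPM in MProPow2 libraries and 2138 to 2204 CPM in control libraries, with 3 of 10 called lower (lev-11, tnt-2 and unc-27) and 6 of 10 lower at an unadjusted p under 0.05 in edgeR, as many as of the intestine markers. The sums of hypodermis markers were 480.0 to 485 CPM in MProPow2 libraries and 521 to 610.1 CPM in control libraries, without overlap, with 0 of 7 called and 1 of 7 lower at an unadjusted p under 0.05 in edgeR. Those of germline markers were 4038 to 5917 CPM in MProPow2 libraries and 4188 to 5631 CPM in control libraries, and those of neuron markers 218 to 259 CPM in MProPow2 libraries and 252 to 257 CPM in control libraries. Pharynx markers summed to 71.6 to 92.4 CPM in MProPow2 libraries and 72.8 to 100.2 CPM in control libraries. Glia markers summed to 60.3 to 69.7 CPM in MProPow2 libraries and 64.3 to 78.1 CPM in control libraries, with 1 of 5 called lower (fig-1). Ratios to the intestine sums were computed for pept-1 only, and both sums were themselves lower in MProPow2. The part of tissue shares in the values of pept-1, aat-6, nhx-2 and pbo-1 was not tested. Defining markers of intestine (elt-2, ges-1), muscle (unc-54), neurons (rab-3) and germline (glh-1) were all detected, and the small RNA mir-228 of the glia list was listed at 0.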

How the data were processed

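Whole-animal RNA was sequenced from 3 MProPow2 and 3 control samples, grouped by their titles. The authors selected mRNA with poly-T beads, aligned the read pairs by HISAT2 2.0.5 and used FeatureCounts for gene totals. The authors deposited raw counts and FPKM. No source used here gives the genome build, annotation version or strand setting, and coordinates are left out. The deposited FPKM equal the counts times a gene factor and a library factor (tested on 9297 genes), and the gene lengths they imply are 1.02 times the exon length on WBcel235 for the 14 pept, aat and atgp genes.

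Counts were tested with edgeR 4.0.16 (R 4.3.3): filterByExpr with a minimum count of 10, TMM scaling, quasi-likelihood F test without covariates, Benjamini-Hochberg adjustment over 14534 genes, threshold 0.05. Standard errors are the log2 fold change over the square root of F. The common biological coefficient of variation was 13.9%. DESeq2 1.42.0, limma 3.58.1 on log2(FPKM + 1) or log2(FPKM + 0.1), other scalings, no filter, a replicate block and the omission of each library were the alternatives. The scripts were tested on simulated data. The genes and lists were chosen with earlier results of these data known. The text names the 9 transporter genes, aat-7 to aat-9, atgp-1 and atgp-2, and of each other list the called genes, or that of smallest p, with the 3 genes most like pept-1. Protein sequences were not used here. The list symbols slc-38.1, slc-38.2, nhx-7 and fgt-2 matched no row.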

Additional observations from a re-analysis of the deposited data

How the results depend on the processing

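Of the 126 alternative values for the 9 transporter genes, 117 kept their direction and their side of the threshold, 1 passed it and 8 changed sign. None of the 9 was called higher in any alternative, and the number called lower was 0 in all but the fit with no filter, where it was 1 (pept-1). With upper-quartile scaling aat-2 turned to 0.045, atgp-2 to 0.016 and nrfl-1 to 0.0032. The other changes of sign came with single libraries left out. Without MProPow2 replicate 3, aat-1, aat-2 and aat-3 were at 0.13, 0.12 and 0.088, and without control replicate 2 they were at 0.031, 0.080 and 0.039. Without MProPow2 replicate 2, aat-5 was at -0.031 and atgp-1 at -0.025, and without control replicate 1, aat-9 was at 0.0047 and atgp-2 at 0.022. Over these omissions aat-1 ran from -0.32 to 0.13, aat-2 from -0.14 to 0.12, aat-3 from -0.23 to 0.088 and aat-5 from -0.031 to 0.31. The cause was not tested. The summed pept genes had log2 ratios from -0.28 to -0.068 and the summed aat genes from -0.18 to 0.087 when single libraries were left out.

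Over all genes tested, 223 were called higher and 214 lower, which is 51.0% higher. The numbers higher and lower were 229 and 131 with upper-quartile scaling (63.6% higher), 684 and 542 with no filter, 341 and 388 with DESeq2, 37 and 60 with limma on log2(FPKM + 1), 66 and 82 on log2(FPKM + 0.1), and 12 and 33 on log2(FPKM + 1) with no filter. With a replicate block they were 90 and 102. The deviations of same-numbered MProPow2 and control libraries from their group means had correlations of -0.048, 0.096 and -0.12. Each MProPow2 library correlated better with a control library of another number, at 0.032, 0.13 and 0.19 for MProPow2 replicates 1, 2 and 3. No source used here says whether same-numbered samples were handled together, and correlations within groups of 3 cannot decide it. With the replicate block nhx-2, pbo-1, dpf-6 and pcp-4 had adjusted p of 0.067, 0.064, 0.066 and 0.076 from edgeR. Without 1 library, the counts ran from 17 to 627 higher and from 55 to 417 lower. Genes of few counts, such as aat-7 and aat-8, have wide intervals at this depth. The ratios of pept-1 to pept-2, pept-3 and nhx-2, and the intestine sum without asp-1, were added after the data were seen.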
